A study of Homo sapiens with 8 samples.

Results

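MAP3K7, which encodes the kinase TAK1, was described together with TAB1, TAB2 and TAB3, which encode its binding partners, in HepG2 cells treated with benzo[a]pyrene (BaP). HepG2 is a human hepatocellular carcinoma cell line, and BaP is a polycyclic aromatic hydrocarbon of smoke and soot that liver cells turn into DNA-damaging metabolites. The 4 genes hold 33 of the 142467 transcript IDs in the files and 4 of the 49733 gene IDs: MAP3K7 has 7 transcripts, TAB1 has 12, TAB2 has 6 and TAB3 has 8. Of these 33 transcripts, 26 had a count in at least 1 library, and 9 made up 10% or more of the gene they belong to, all libraries summed. All 4 genes passed the filter on low counts. They were chosen with their BaP and vehicle values known, so for them the comparisons of BaP with vehicle are a description and carry no p-value.

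The 4 groups were BaP at 2 µM for 12 h, BaP at 2 µM for 24 h, DMSO vehicle at 0.5% for 12 h and DMSO vehicle at 0.5% for 24 h, with 2 libraries of poly-A RNA in each. The labels call the libraries of a group biological replicates from independent experiments, and every culture was the same cell line in the same medium with serum. In 8 libraries the total count ran between 2592272 (BaP 24 h, replicate 1) and 16533490 (BaP 24 h, replicate 2), so the first of these is the least precise. Across genes the log2 levels of replicate libraries correlated with r of 0.974 to 0.992, the lowest in BaP 24 h. All 9 hepatocyte markers were detected in each group and summed to 20192 to 22892 CPM, which are counts scaled to a library of 1000000, in the BaP libraries, against 25834 to 32974 CPM in the vehicle libraries. The 4 immune markers summed to 47.7 to 51.4 CPM in BaP 12 h, against 39.1 to 43.0 CPM in vehicle 12 h, and to 55.7 to 60.6 CPM in BaP 24 h, against 36.8 to 39.2 CPM in vehicle 24 h. The 4 fibroblast markers summed to 69.4 to 79.8 CPM in BaP 12 h, against 73.5 to 101.8 CPM in vehicle 12 h, and to 112 to 131 CPM in BaP 24 h, against 81.9 to 107 CPM in vehicle 24 h. By edgeR's test the hepatocyte markers APOB and FGA were lower in BaP at both times, and the other hepatocyte markers were not called at either. CD14 was higher in BaP at both times, CD68 and ACTA2 were higher at 24 h and PDGFRB was lower at 12 h. PTPRC, CD3E and COL1A2 did not pass the filter on low counts. The endothelial markers, of which 2 of 3 had an ID in the files, summed to at most 3.04 CPM. The part of these marker levels in the results was not tested. Every culture was the same cell line, so these levels are not read as amounts of other cell types. In RNA from a whole culture, fewer cells that express a gene and less of its RNA per cell cannot be told apart.

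TAK1 is a MAP3 kinase that tumour necrosis factor, interleukin-1, Toll-like and TGF-beta receptors switch on. TAB1 binds its kinase domain and activates it, while TAB2 and TAB3 bind its C-terminal region and carry a zinc finger that holds polyubiquitin chains, which brings the complex to active receptors. Activated TAK1 phosphorylates MAP2 kinases, which turn on JNK and p38, and the IKK complex, which frees NF-kB; in liver cells these arms govern stress signalling and survival.

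At 12 h the MAP3K7 transcripts that differed most between BaP and vehicle were a pair that differ by 1 exon. In GENCODE 29 (build GRCh38), MAP3K7 lies on the minus strand of chromosome 6, from 90513573 to 90587045, and no other annotated gene overlaps it. ENST00000369329 has 17 exons, a length of 4911 bases and an open reading frame of 606 codons before the stop. ENST00000369332 has 16 exons, a length of 4830 bases and an open reading frame of 579 codons, because it lacks exon 12. That exon covers 90544552 to 90544632 and is a coding exon of 81 bases, which is 27 codons, so its loss keeps the reading frame. It is a known alternative exon, between the kinase domain and the C-terminal region that TAB2 and TAB3 bind. The exon and its junctions are shown because they are the whole difference between these transcripts. Capitals mark exon 12 and small letters mark the last 20 bases of exon 11 and the first 20 of exon 13, written 5′ to 3′ on the transcript's strand, from the GRCh38 reference:

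ENST00000369329, exon 12 included: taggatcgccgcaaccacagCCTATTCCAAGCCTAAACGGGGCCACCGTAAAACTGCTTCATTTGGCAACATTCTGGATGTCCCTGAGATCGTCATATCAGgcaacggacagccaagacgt

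ENST00000369332, exon 12 skipped: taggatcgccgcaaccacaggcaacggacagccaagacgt

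Only reads that touch these 81 bases or the junction that skips them can tell the pair apart, and the 81 bases are 1.65% of the longer transcript. The deposited counts per transcript are therefore estimates by the program RSEM, which divides each gene's reads between transcripts, and 2 sets of them were read. The estimated count is RSEM's best single division, and the posterior mean count averages over the divisions that the reads allow.

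At 12 h the transcript without exon 12 was listed at 0 in both BaP libraries. ENST00000369332 had estimated counts of 0 and 0 in BaP 12 h, against 148 and 158 in vehicle 12 h. As a share of MAP3K7 counts this was 0% and 0% in BaP, against 40.0% and 35.8% in vehicle. A count of 0 allows a share of up to 1.07% and 0.694% in these BaP libraries by counting error alone, with 3 counts as the limit, but the division of reads adds error that this limit does not hold. In posterior mean counts the same transcript kept 6.25% and 7.71% of the gene in BaP 12 h, against 36.1% and 32.1% in vehicle 12 h. Both measures thus put both BaP libraries below both vehicle libraries, by 37.9 percentage points in estimated counts and 27.1 in posterior mean counts.

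The transcript with exon 12 was higher in the same libraries. ENST00000369329 had estimated counts of 149 and 227 in BaP 12 h, against 86.5 and 113 in vehicle 12 h. Its share of MAP3K7 was 52.8% ± 0.506 in BaP and 24.5% ± 1.62 in vehicle (SD, n = 2 each), a difference of 28.4 percentage points. In posterior mean counts the shares were 43.1% ± 0.994 in BaP and 24.1% ± 1.85 in vehicle (SD, n = 2 each), a difference of 19.0 points. The difference was many times the spread between replicates in both measures, though its size depends on the measure. That spread need not hold the whole error from the division of reads, and RSEM's deposited intervals, given below, overlapped. MAP3K7 was also chosen on this comparison, so the size of the difference is a description only.

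**Figure D1:**
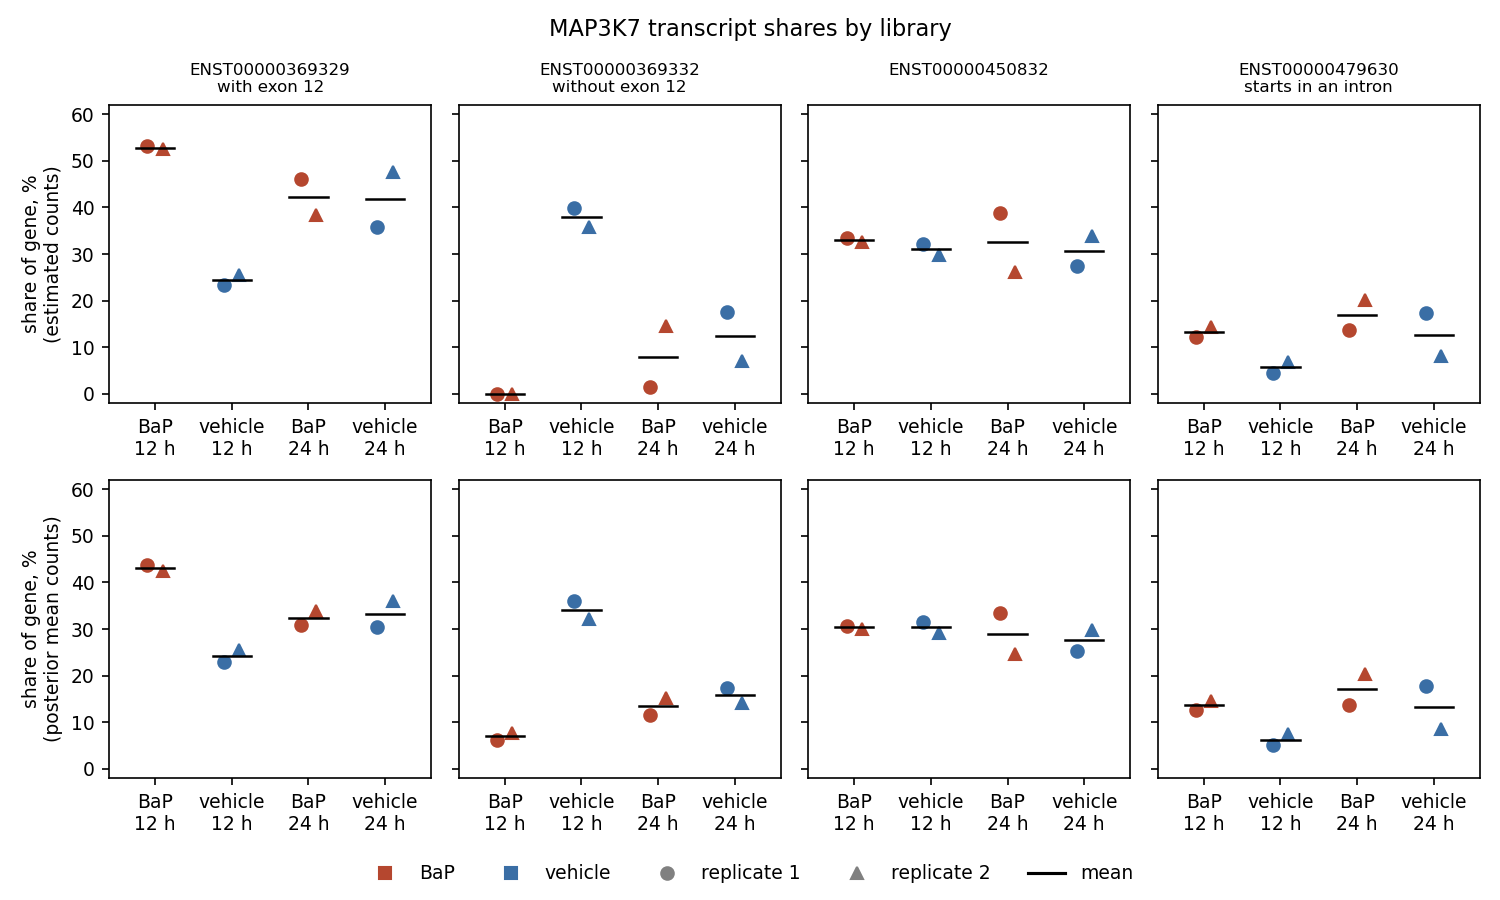
Share of each of the 4 leading MAP3K7 transcripts in the gene's counts (y axis, %) by group (x axis), from estimated counts (upper row) and posterior mean counts (lower row). Circles and triangles are replicates 1 and 2 and lines are means of 2 libraries. At 12 h the BaP libraries lie above vehicle for ENST00000369329 and below it for ENST00000369332 in both rows, while at 24 h the groups overlap.

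Taken over this pair alone, the share that carried exon 12 was 86.1% ± 2.05 in BaP 12 h and 41.5% ± 3.86 in vehicle 12 h (SD, n = 2 each; posterior mean counts). From estimated counts it was 100% in both BaP libraries, against 36.8% and 41.7% in the vehicle libraries. No estimated count is left for the skipped form in BaP 12 h, whereas posterior mean counts keep some in both libraries.

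At 24 h the BaP and vehicle libraries overlapped for both transcripts. The share with exon 12 among the pair was 72.5% and 69.0% in BaP 24 h, against 63.6% and 71.8% in vehicle 24 h (posterior mean counts). In estimated counts ENST00000369332 held 1.39% and 14.5% of MAP3K7 in BaP 24 h, against 17.7% and 7.11% in vehicle 24 h, and ENST00000369329 held 46.1% and 38.4% in BaP 24 h, against 35.8% and 47.7% in vehicle 24 h. The BaP 24 h library with the lowest share of the skipped form was also the shallowest, with 97 counts for the whole gene. Without it the difference for ENST00000369332 turned to 2.13 percentage points higher in BaP, against 4.43 lower with it. At 24 h, then, no direction can be read for either transcript.

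The vehicle groups themselves differed with time in culture. Exon 12 was carried by 67.7% ± 5.81 of the pair in vehicle 24 h and 41.5% ± 3.86 in vehicle 12 h (SD, n = 2 each; posterior mean counts), and the libraries did not overlap. The skipped transcript held 15.7% ± 2.30 of MAP3K7 in vehicle 24 h and 34.1% ± 2.80 in vehicle 12 h (SD, n = 2 each; posterior mean counts). Among the 4 groups vehicle 12 h had the lowest inclusion, BaP 12 h the highest, and both 24 h groups lay between. The vehicle libraries also served in choosing MAP3K7, so this difference too is given without a p-value.

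RSEM's deposited intervals show how loosely the reads fix these 2 transcripts. In TPM, which is the deposited share of transcript molecules times 1000000 and corrects for length, ENST00000369332 had posterior means of 0.416 and 0.561 in BaP 12 h, against 2.22 and 2.03 in vehicle 12 h. Its intervals reached up to 1.16 and 1.39 in BaP, and down to 1.02 and 0.857 in vehicle. ENST00000369329 had 2.73 and 2.96 TPM in BaP 12 h, against 1.39 and 1.58 in vehicle 12 h, with intervals down to 1.73 and 2.01 in BaP and up to 2.36 and 2.56 in vehicle. For both transcripts the intervals of BaP and vehicle overlapped at 12 h although the means were apart. What level these intervals have is not stated in the files or labels.

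**Figure D2:**
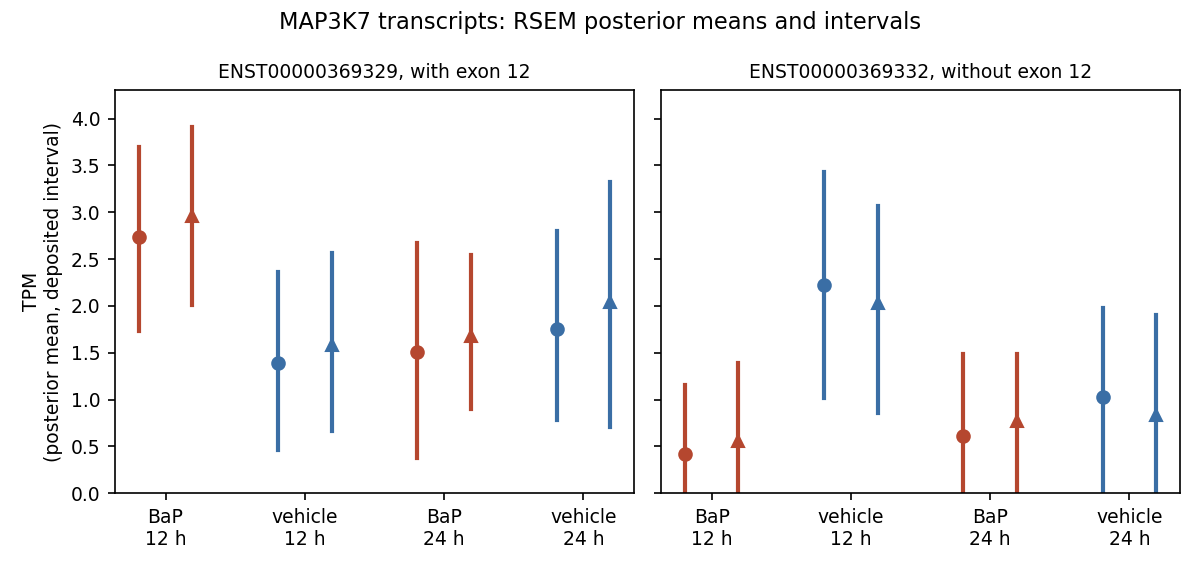
Level of the MAP3K7 transcripts with and without exon 12 in TPM (y axis), for each library by group (x axis). Points are RSEM posterior means (circle, replicate 1; triangle, replicate 2) and bars are the deposited intervals, which overlap between BaP and vehicle at both times.

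Another MAP3K7 transcript was higher in BaP at 12 h. ENST00000479630 is a processed transcript of 2214 bases and 5 exons with no annotated reading frame, and its first exon joins 65 bases of exon 13 to 817 bases of the intron before it. It held 12.3% and 14.3% of MAP3K7 in BaP 12 h, against 4.51% and 6.90% in vehicle 12 h. Its posterior mean shares were 13.6% ± 1.29 in BaP and 6.30% ± 1.62 in vehicle (SD, n = 2 each), so the 2 measures gave nearly the same values here. At 24 h it held 13.6% and 20.2% in BaP, against 17.3% and 8.07% in vehicle, and the groups overlapped.

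ENST00000450832, the remaining transcript with at least 10%, held between 26.2% and 38.9% of MAP3K7 in the 8 libraries. Its share was 33.0% ± 0.621 in BaP 12 h and 31.0% ± 1.71 in vehicle 12 h, and 32.5% ± 9.01 in BaP 24 h and 30.6% ± 4.52 in vehicle 24 h (SD, n = 2 each). Its posterior mean shares overlapped at both times. The deposited values give it a length of 2434 bases, and its exons were not analysed here, so whether it carries exon 12 is not known and it enters neither side of the pair. Of the other 3, ENST00000369325 and ENST00000369327 lack exon 16, of 116 bases (ENST00000369327 also exon 12), and were listed at 0 in all 8 libraries, with posterior mean counts of at most 11.1 and 11.5. ENST00000369320 held at most 3.33%.

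Summed over its transcripts, MAP3K7 had 32.7 and 33.3 CPM in BaP 12 h, against 27.4 and 30.8 CPM in vehicle 12 h, a log2 fold change of 0.18 ± 0.14 (SE, edgeR). In BaP 24 h it had 36.4 and 28.7 CPM, against 29.2 and 34.5 CPM in vehicle 24 h, a log2 fold change of -0.01 ± 0.16. The 12 h groups did not overlap but lay close together, and the 24 h groups overlapped. In posterior mean TPM the gene was lower in BaP at 24 h, with 7.87 and 7.69 in BaP 24 h, against 8.89 and 8.48 in vehicle 24 h, so its direction at 24 h depends on the measure. At 12 h the gene was higher in BaP in TPM, at 12.1 ± 0.391 in BaP 12 h and 9.61 ± 0.670 in vehicle 12 h (SD, n = 2 each). Posterior mean TPM was 10.1 ± 0.833 in BaP 12 h and 8.82 ± 0.179 in vehicle 12 h (SD, n = 2 each), and the libraries did not overlap in either measure. By counts alone, the exchange of the pair at 12 h was seen beside a change of the gene's total smaller than 1.5 times its SE.

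TAB3 was the partner with the largest gene-level difference. It lies on the minus strand of the X chromosome, from 30827442 to 30975084 (GRCh38). It had 125.8 and 126.9 CPM in BaP 12 h, against 58.4 and 67.3 CPM in vehicle 12 h, a log2 fold change of 1.01 ± 0.11. In BaP 24 h it had 97.5 and 95.1 CPM, against 66.8 and 66.8 CPM in vehicle 24 h, a log2 fold change of 0.53 ± 0.12. In CPM both BaP libraries lay above both vehicle libraries at each time, by far more than the replicates differed. In length-corrected terms its level was 34.3 ± 0.867 TPM in BaP 12 h and 16.9 ± 0.942 TPM in vehicle 12 h (SD, n = 2 each). At 24 h it was 27.3 and 19.7 TPM in BaP, against 17.1 and 18.8 TPM in vehicle, so the BaP replicates differed by more than the group means. Posterior mean TPM at 24 h was 18.1 ± 0.628 in BaP and 15.9 ± 0.377 in vehicle (SD, n = 2 each). Antisense genes TAB3-AS1 and TAB3-AS2 overlap the span of TAB3. Whether their exons overlap those of TAB3 was not checked, and whether the counting used strand is not stated. How many reads they could share with TAB3 is therefore not known.

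TAB2, the closest relative of TAB3, had small differences of opposite sign at the 2 times. It lies on the plus strand of chromosome 6, from 149218641 to 149411613 (GRCh38). It had 85.6 and 79.3 CPM in BaP 12 h, against 76.1 and 75.7 CPM in vehicle 12 h, a log2 fold change of 0.12 ± 0.11. In BaP 24 h it had 73.5 and 80.5 CPM, against 87.5 and 84.4 CPM in vehicle 24 h, a log2 fold change of -0.15 ± 0.11. BaP libraries were thus the higher ones at 12 h and the lower ones at 24 h, each time by little more than the SE. TAB2-AS1 on the opposite strand, SUMO4 on the same strand and other small genes overlap the span of TAB2. Whether their exons overlap those of TAB2 was not checked.

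TAB1 had lower counts in BaP. It lies on the plus strand of chromosome 22, from 39399741 to 39437060 (GRCh38), with no overlapping gene. It had 24.5 and 29.9 CPM in BaP 12 h, against 37.9 and 30.7 CPM in vehicle 12 h, a log2 fold change of -0.33 ± 0.14. In BaP 24 h it had 33.8 and 31.7 CPM, against 36.2 and 36.9 CPM in vehicle 24 h, a log2 fold change of -0.17 ± 0.15. The replicates of vehicle 12 h lay as far apart as the group means.

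Counted by library, the CPM of BaP and vehicle did not overlap for all 4 genes at 12 h and for 3 of 4 at 24 h. Over all 14746 genes tested, 49.3% did not overlap at 12 h and 47.2% at 24 h, and nothing is read from the members' count, since they were chosen on this comparison.

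**Figure D3:**
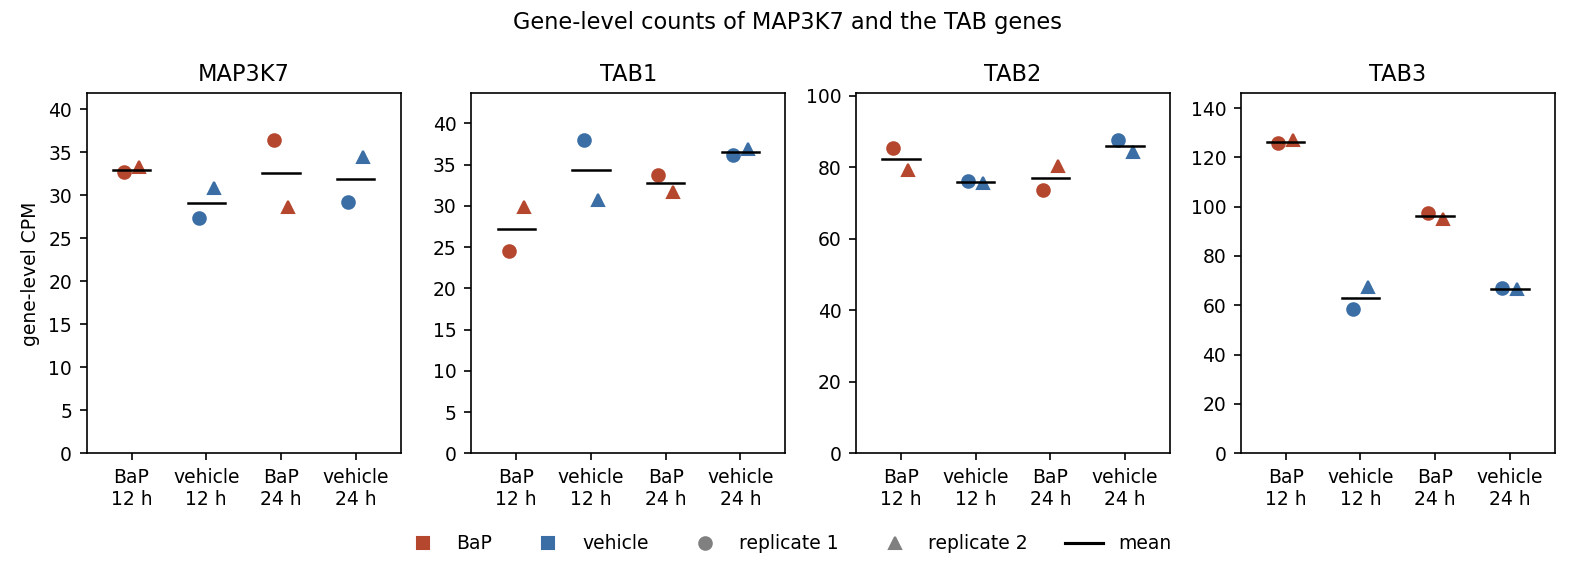
Gene-level CPM (y axis, from 0) of MAP3K7, TAB1, TAB2 and TAB3 by group (x axis). Circles and triangles are replicates 1 and 2, lines are means of 2 libraries; TAB3 lies at 125.8 and 126.9 CPM in BaP 12 h, against 58.4 and 67.3 CPM in vehicle 12 h.

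Between vehicle at 24 h and vehicle at 12 h, whose libraries also served in choosing the genes, the log2 fold changes were 0.12 ± 0.15 for MAP3K7, 0.09 ± 0.14 for TAB1, 0.18 ± 0.11 for TAB2 and 0.09 ± 0.11 for TAB3 (SE, edgeR). They are given without a p-value. The groups overlapped in CPM for 3 of the 4 and lay apart for TAB2, where 48.6% of all genes tested did so.

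Compared per length, TAB2 had the highest level of the 4 genes and MAP3K7 the lowest. Over the 8 libraries TAB2 ranged between 32.8 and 43.9 TPM with a median of 37.4. TAB3 ranged between 16.2 and 34.9 with a median of 19.3, TAB1 between 9.18 and 19.1 with a median of 14.1, and MAP3K7 between 8.44 and 14.1 with a median of 10.7. The ranges of neighbours in this order overlapped, though TAB2 lay above TAB3 in each of the 8 libraries. TAB1 lay above TAB3 in replicate 1 of vehicle 12 h, and MAP3K7 above TAB1 in replicate 1 of BaP 12 h. TAB1 lay above TAB2 only in replicate 1 of BaP 24 h, and there only in posterior mean TPM (26.9 against 21.6). In posterior mean TPM the order of TAB3 and TAB1 was not fixed: TAB1 had 16.8 ± 0.743 in BaP 12 h and 21.6 ± 6.70 in vehicle 12 h, and TAB3 had 30.0 ± 2.02 in BaP 12 h and 16.3 ± 1.70 in vehicle 12 h (SD, n = 2 each). The means of TAB2 and TAB3 were closest in BaP 12 h, at 42.2 ± 2.51 and 34.3 ± 0.867 TPM (SD, n = 2 each).

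The partners differed in how their counts were divided between transcripts. TAB1 was nearly all ENST00000216160, an mRNA of 3237 bases, which held 98.3% and 97.4% of TAB1 counts in BaP 12 h, against 92.0% and 94.0% in vehicle 12 h. At 24 h it held 95.5% and 95.8% in BaP, against 95.5% and 96.0% in vehicle. Of the rest, ENST00000473491, a retained intron of 574 bases, had at most 4.77%. After correction for length, each count of such a short transcript stands for more molecules. The length-corrected share of ENST00000216160 was 91.2% ± 6.83 in BaP 12 h and 70.6% ± 5.98 in vehicle 12 h (SD, n = 2 each). From posterior mean fractions the same share was 42.3% and 52.9% in BaP 12 h, against 44.8% and 52.3% in vehicle 12 h, and the groups overlapped.

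TAB2 was divided between ENST00000392282, with an implied length of 1789 bases, and ENST00000286332, with 4153 bases. ENST00000392282 held 57.8% and 54.4% in BaP 12 h, against 52.0% and 48.6% in vehicle 12 h, and 55.2% and 55.9% in BaP 24 h, against 52.0% and 43.6% in vehicle 24 h. ENST00000286332 held 39.3% and 43.6% in BaP 12 h, against 43.9% and 46.1% in vehicle 12 h, and 29.8% and 43.1% in BaP 24 h, against 43.6% and 52.0% in vehicle 24 h. The shorter transcript was thus the higher and the longer the lower in BaP at both times, by margins near the spread between replicates. Without replicate 1 of BaP 24 h the difference of ENST00000286332 was -4.70 percentage points, against -11.4 with it.

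TAB3 showed how unstable a division between long transcripts can be. In GENCODE 29, ENST00000378933 and ENST00000378930 code for the same number of codons, 712 before the stop. Their implied lengths are 6302 and 6255 bases, but GENCODE 29 gives ENST00000378933 6671 bases, so its codons may differ in the reference that was counted. How alike their sequences are was not examined. In estimated counts ENST00000378933 held 45.4% and 42.5% of TAB3 in BaP 12 h, against 32.4% and 14.8% in vehicle 12 h, and 0.619% and 47.8% in BaP 24 h, against 44.0% and 0% in vehicle 24 h. ENST00000378930 held 40.4% and 3.31% in BaP 24 h, against 0.0924% and 42.7% in vehicle 24 h, so replicates of 1 group took opposite forms. In posterior mean counts ENST00000378933 held 28.5% and 20.5% in BaP 12 h, against 22.2% and 32.8% in vehicle 12 h, and the groups overlapped. The difference in estimated counts at 12 h, 20.3 percentage points, turned to -3.03 in posterior mean counts. ENST00000288422, with an implied length of 3776 bases, held 28.3% and 32.6% in BaP 12 h, against 30.7% and 22.1% in vehicle 12 h, and overlapped. Its own level was higher with that of the gene, at 38.5 ± 4.06 CPM in BaP 12 h and 16.4 ± 2.21 CPM in vehicle 12 h (SD, n = 2 each).

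**Figure D4:**
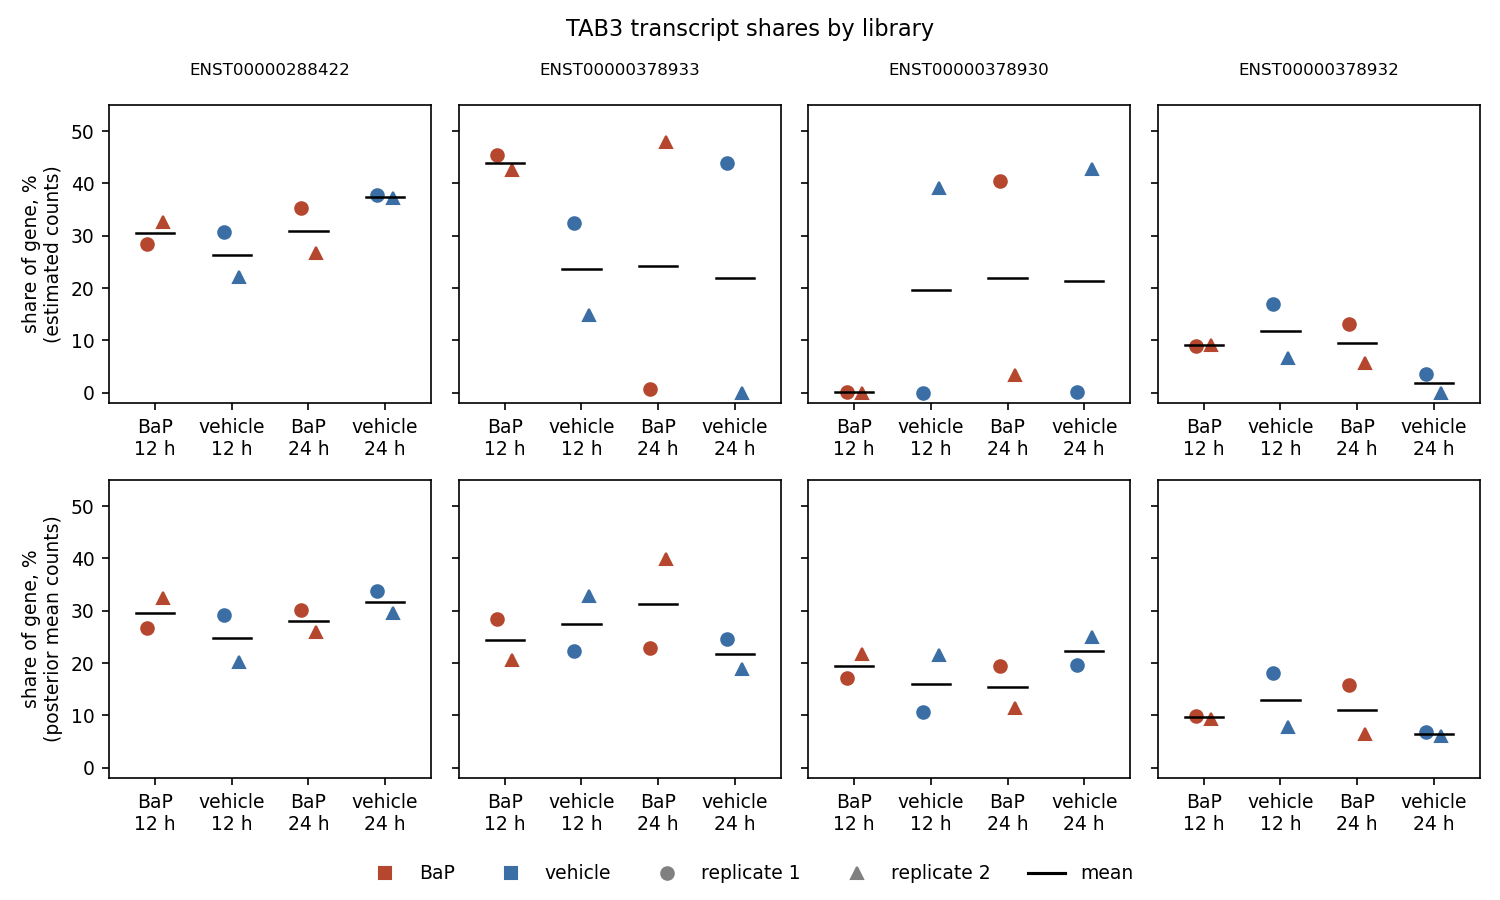
Share of 4 TAB3 transcripts in the gene's counts (y axis, %) by group (x axis), from estimated counts (upper row) and posterior mean counts (lower row). Circles and triangles are replicates 1 and 2 and lines are means; ENST00000378933 and ENST00000378930 swing between near 0% and over 40% among replicates in the upper row and lie between 10.6% and 39.8% in the lower row.

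Over the 9 transcripts with at least 10%, the shares of BaP and vehicle did not overlap for 8 at 12 h and for 3 at 24 h. Over all 19307 transcripts compared in the same way, 32.2% did not overlap at 12 h and 32.5% at 24 h, and again nothing is read from the members' count.

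Genes around TAK1 were set beside all genes tested. Of 78 genes in 5 lists, from receptors and ubiquitin ligases to JNK, p38 and NF-kB, 72 were tested. At 12 h 5 were higher and 3 lower in BaP at an adjusted p under 0.05, against 3.41% of all genes tested that were higher and 4.84% that were lower, 8.25% in all. At 24 h 3 were higher and 1 lower, against 3.11% and 2.2% of all genes, 5.3% in all. At 12 h the share higher was above that of all genes, and with so few calls nothing is read from these counts. The median log2 fold change of the 72 was 0.10 at 12 h and 0.03 at 24 h, beside 0.02 and 0.01 for all genes. For 46 of them transcript usage could be tested, and none passed by edgeR's gene-level F-test at 12 h, at 24 h or between the vehicle groups (2, 7 and 1 at an unadjusted p under 0.05). Over all 7618 genes tested for usage, 0.289% passed at 12 h, 0.774% at 24 h and 0.276% between the vehicle groups. At an unadjusted p under 0.05 there were 409, 818 and 464 of these genes, and nothing is read from the unadjusted counts. Most of the calls that follow were lost when some library was left out, which leaves 1 in its group, but their log2 fold changes kept their sign. A lost call therefore does not show that 1 library made the difference. The libraries without which a call was lost are named with each gene.

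Upstream of TAK1, 1 of 23 adaptors, ligases and receptors was higher at 12 h and none at 24 h. TNFRSF1A, the main receptor of tumour necrosis factor, had 213 and 219 CPM in BaP 12 h, against 151 and 144 CPM in vehicle 12 h (log2 fold change 0.55 ± 0.11, edgeR adjusted p = 0.0058). Its call was lost without either BaP library or without replicate 2 of vehicle 12 h (adjusted p up to 0.094). The median of this list was 0.11 at 12 h and 0.04 at 24 h, and 4 and 3 members had an unadjusted p under 0.05. Of all 14746 genes tested, 2892 at 12 h and 2948 at 24 h had such a p, and nothing is read from the list's counts.

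Of 11 deubiquitinases, phosphatases and other inhibitors tested, none was higher, 2 were lower at 12 h and 1 at 24 h. TNFAIP3, which encodes A20, a ubiquitin-editing brake on NF-kB and itself an NF-kB target, had 23.9 and 25.6 CPM in BaP 12 h, against 35.6 and 34.9 CPM in vehicle 12 h (log2 fold change -0.50 ± 0.13, edgeR adjusted p = 0.022). In BaP 24 h it had 41.6 and 39.1 CPM, against 56.0 and 65.4 CPM in vehicle 24 h (log2 fold change -0.59 ± 0.13, edgeR adjusted p = 0.016). Its libraries were lower in BaP at both times. In vehicle it was higher at 24 h than at 12 h (log2 fold change 0.78 ± 0.13, edgeR adjusted p = 0.0024). The 12 h call was lost without any single library of that comparison, with adjusted p between 0.057 and 0.23, and under DESeq2 (adjusted p = 0.063). The 24 h call was lost without replicate 2 of BaP 24 h or either vehicle library (adjusted p up to 0.19), and the call in vehicle without replicate 2 of vehicle 24 h (adjusted p = 0.080). PPM1L, a phosphatase that acts on TAK1, was near the detection limit, with 0.232 and 0.847 CPM in BaP 12 h, against 2.29 and 2.80 CPM in vehicle 12 h (log2 fold change -2.09 ± 0.52, edgeR adjusted p = 0.018). Its call was lost without replicate 1 of BaP 12 h (log2 fold change -1.57) or without either vehicle library, and without replicate 2 of BaP 12 h its log2 fold change was -3.40.

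In the MAP2K and MAPK arm, 2 of 13 genes tested were higher and 1 was lower at 12 h, and 2 were higher at 24 h. MAP2K6, a kinase that activates p38 but not the only one, had 3.25 and 3.00 CPM in BaP 12 h, against 9.74 and 11.5 CPM in vehicle 12 h (log2 fold change -1.77 ± 0.28, edgeR adjusted p = 5.8e-04). Its call was kept without each library in turn. MAPK12, which encodes p38 gamma, had 45.8 and 47.1 CPM in BaP 12 h, against 30.9 and 33.5 CPM in vehicle 12 h (log2 fold change 0.53 ± 0.12, edgeR adjusted p = 0.011). At 24 h it had 44.6 and 47.6 CPM in BaP, against 31.2 and 29.8 CPM in vehicle (log2 fold change 0.60 ± 0.13, edgeR adjusted p = 0.013). Its libraries lay well apart at both times, but the 12 h call was lost without either BaP library or replicate 1 of vehicle 12 h, and the 24 h call without replicate 2 of BaP 24 h or either vehicle library, with adjusted p up to 0.14.

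MAPK13, which encodes p38 delta, had 68.3 and 60.4 CPM in BaP 24 h, against 33.7 and 36.2 CPM in vehicle 24 h (log2 fold change 0.87 ± 0.15, edgeR adjusted p = 0.0023). That call was lost without replicate 1 of vehicle 24 h (adjusted p = 0.068). JUN, the AP-1 subunit that JNK phosphorylates, had 47.5 and 47.2 CPM in BaP 12 h, against 30.8 and 28.4 CPM in vehicle 12 h (log2 fold change 0.68 ± 0.14, edgeR adjusted p = 0.0042). It was also higher in vehicle 24 h, at 45.1 and 58.9 CPM, than in vehicle 12 h (log2 fold change 0.79 ± 0.14, edgeR adjusted p = 0.0038). Its 12 h call was lost without either BaP library (adjusted p = 0.053 and 0.051), and its call in vehicle without replicate 2 of vehicle 12 h or of vehicle 24 h (adjusted p up to 0.12). TNFAIP3 and JUN were the 2 pathway genes called between the vehicle groups, both higher at 24 h, where 3.28% of all genes tested were called, 2.27% higher and 1.01% lower.

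In the IKK and NF-kB arm, 1 of 11 genes was called, higher at both times. IKBKG, which encodes NEMO, the polyubiquitin-binding subunit of IKK, had 66.8 and 60.8 CPM in BaP 12 h, against 38.8 and 36.9 CPM in vehicle 12 h (log2 fold change 0.75 ± 0.13, edgeR adjusted p = 0.0012). At 24 h it had 47.6 and 38.5 CPM in BaP, against 25.8 and 29.3 CPM in vehicle (log2 fold change 0.62 ± 0.15, edgeR adjusted p = 0.021). The 12 h call was kept without each library in turn, and the 24 h call was lost without either vehicle library (adjusted p up to 0.27). IKBKG has a near-identical pseudogene copy with which reads can be shared, so its counts are uncertain. The median of this list was 0.29 at 12 h and 0.14 at 24 h.

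Among 14 other MAP3 kinases tested, 1 was higher at 12 h and none was called at 24 h. MAP3K8, which encodes the ERK-activating kinase TPL2, had 12.2 and 10.7 CPM in BaP 12 h, against 6.12 and 7.20 CPM in vehicle 12 h (log2 fold change 0.77 ± 0.19, edgeR adjusted p = 0.020). The call was lost without either BaP library or replicate 1 of vehicle 12 h (adjusted p up to 0.21), and under DESeq2 (adjusted p = 0.15).

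**Figure D5:**
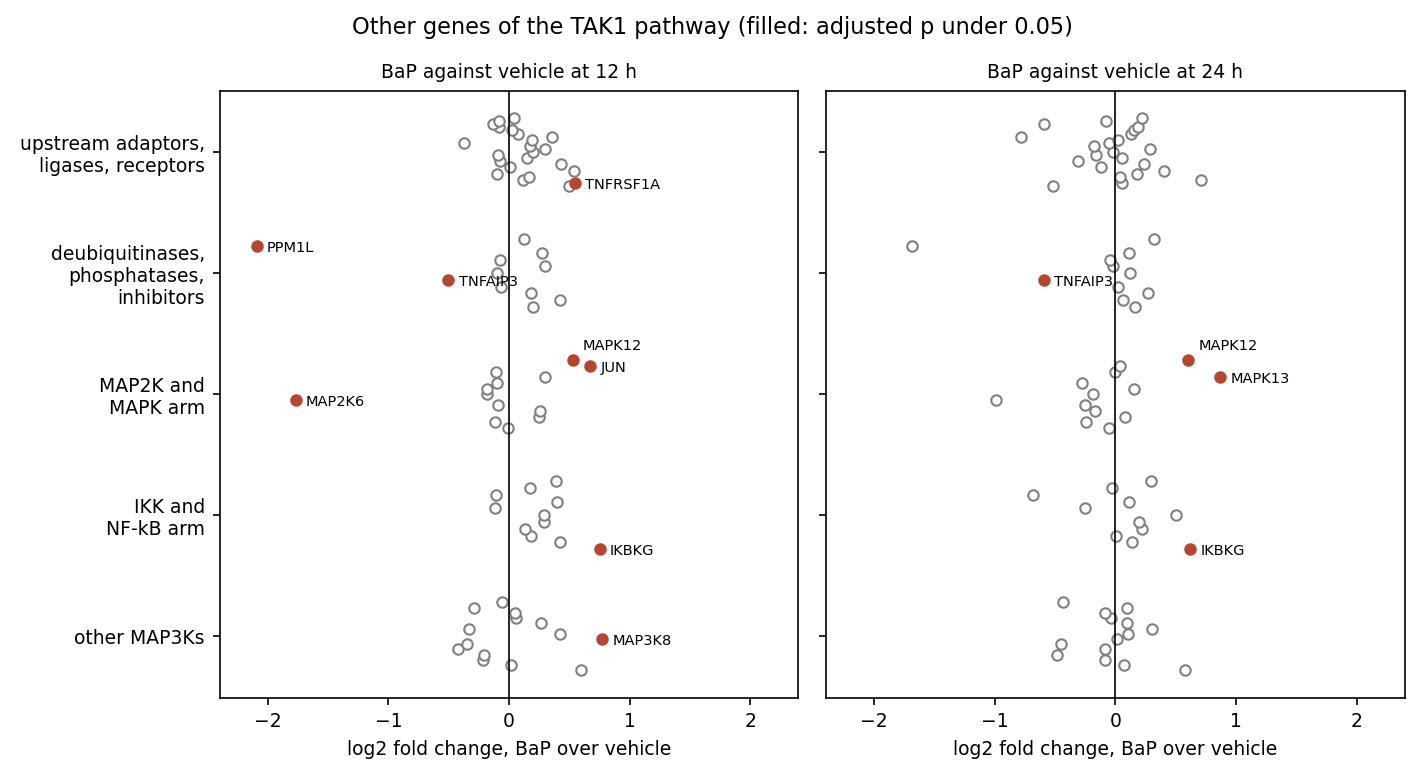
Log2 fold change, BaP over vehicle (x axis), of the tested genes in 5 TAK1 pathway lists (y axis) at 12 h (left) and 24 h (right). Each circle is 1 gene; filled and named circles have an edgeR adjusted p under 0.05, 8 genes at 12 h and 4 at 24 h, and the others are open.

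The genes whose levels were most like that of MAP3K7 over the 8 libraries were ESF1 (r = 0.96), ERBIN (r = 0.92), SASH1 (r = 0.92), BSDC1 (r = 0.91) and ATP13A3 (r = 0.91), of 10416 genes compared by log2 CPM. The transcript shares most like that of ENST00000369332 were ENST00000296792 of UTP15 (r = 0.99), ENST00000476500 of SAG (r = 0.96), ENST00000504860 of MND1 (r = 0.96), ENST00000263347 of TCF25 (r = 0.94) and ENST00000407086 of BCAS3 (r = 0.94), of 17408 transcripts. The UTP15 transcript held 49.3% and 48.1% of its gene in BaP 12 h, against 80.1% and 73.9% in vehicle 12 h, and 51.2% and 55.5% in BaP 24 h, against 59.2% and 51.8% in vehicle 24 h. Like the MAP3K7 form without exon 12, it had its highest shares in both vehicle 12 h libraries. These correlations describe 8 libraries that share groups and depth, and they are the highest of all compared.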

How the data were processed

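Poly-A RNA of 8 HepG2 libraries was sequenced, and results per gene and per transcript were deposited for each in 16 files. Per the submitters' processing notes the authors used Bowtie 0.12.7 and RSEM 1.1.7, with Ensembl release 58 per the file names. The estimated counts are deposited as RSEM gave them, not normalized, and need not be whole. The deposited fraction is the share of transcript molecules, corrected for length; it is printed as TPM, that is times 1000000. Posterior means of counts and of fractions, with interval bounds, stand beside them. The notes name edgeR without a version. No source used here names the genome build of the files.

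Transcript lengths implied by the deposited values matched GENCODE 29 within 3% wherever both were known, except for ENST00000288422 and ENST00000378933 of TAB3. Structures, positions and exon sequence are from GENCODE 29 on GRCh38. Symbols were found for 41542 of 49733 gene IDs. Of 102 genes in the lists, DUSP14 and PECAM1 had no ID.

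Estimated counts were rounded to whole numbers, and edgeR 4.0.16 (R 4.3.3) was used. The filter filterByExpr, with a minimum count of 10 and a minimum total of 15, kept 14746 genes, and scaling was by TMM. One mean per group was fitted to all 8 libraries, with robust quasi-likelihood F-tests, two-sided, and Benjamini-Hochberg adjustment over all genes of a comparison at 0.05. CPM use the scaled library sizes. Usage of transcripts that held at least 10% of a gene's counts was tested by the gene-level F-test of diffSpliceDGE in edgeR, in 7618 of the genes kept. Alternatives were DESeq2 1.42.0, other scaling, no filter, a replicate block, posterior mean counts, length-corrected fractions, other usage tests and leaving out each library. With 2 libraries per group, p-values rest on the spread shared over all groups. A floor of 3 counts covers counting error alone, because several reads can come from 1 molecule. Simulated data were used to check the tests for BaP against vehicle at 12 h. Of 14450 genes, 85 of 100 changed 2-fold and 100 of 100 changed 4-fold were recovered, with 10 false calls. Of 7541 genes, 199 of 200 with changed usage were recovered, with 18 false calls. In these the leading transcript was lowered 4-fold in favour of the next, and smaller changes of usage were not simulated. The simulated counts were drawn directly for each gene or transcript with a fixed spread, and only genes above a set level were changed. They hold no error from the division of reads, so how the usage test fares under that error was not checked.

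The members and lists were chosen with earlier results of these data known. Planned tests of the members between the vehicle groups are not given, because the vehicle libraries served in choosing the members. Named were the 4 members, their transcripts with at least 10%, up to 4 called genes per pathway list with the smallest p, and the 5 genes (mean of at least 5 CPM) and 5 transcripts most correlated with MAP3K7 and with ENST00000369332, which had the largest mean difference.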

Additional observations from a re-analysis of the deposited data

Results flagged for a closer look

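In CPM, TAB2 went in opposite directions at the 2 times: both BaP libraries lay above both vehicle libraries at 12 h, by 6.55 CPM on average, and below both at 24 h, by a mean difference of -8.96 CPM. The means were 82.4 ± 4.44 CPM in BaP 12 h and 75.9 ± 0.288 CPM in vehicle 12 h, and 77.0 ± 4.91 CPM in BaP 24 h and 86.0 ± 2.23 CPM in vehicle 24 h (SD, n = 2 each). The difference between the times was not tested. In TPM the groups also lay apart at 12 h but overlapped at 24 h, with 37.6 and 32.8 TPM in BaP, against 42.1 and 35.0 TPM in vehicle, and posterior mean TPM overlapped at 24 h too. The total count of BaP 24 h replicate 1 was the lowest of all, and without it the log2 fold change at 24 h was -0.10, against -0.15 with it.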

How the results depend on the processing

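At 12 h the share of ENST00000369329 was 28.4 percentage points higher in BaP, against 19.0 from posterior mean counts and 17.3 from the length-corrected fraction. That of ENST00000369332 was -37.9, against -27.1 and -27.2. The share of ENST00000450832, 1.96, became 0.070 and turned to -0.70, and that of ENST00000479630, 7.58, became 10.7 in the fraction. The share of ENST00000378933 of TAB3 turned from 20.3 to -3.03 with posterior mean counts. The log2 fold change of TAB3 at 24 h was 0.50 with no filter, against 0.53. The cause was not tested.

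Counts of calls moved more. Genes with changed usage at 12 h, 22, became 12 by Simes test, 4 with no minimum share, 2 with the replicate block and 1 from posterior mean counts. At 24 h the 59 became 21, 25, 26 and 14 in that order. In vehicle the 21 became 12 by Simes test, 5 with the block and 4 from posterior mean counts. Pathway genes with changed usage at 24 h, 0, became 1 with no minimum share and 2 from posterior mean counts. DESeq2 called 292 genes higher at 12 h, against 503, and 304 at 24 h, against 458. With no filter, genes lower became 559 at 24 h, against 324, and 341 in vehicle, against 149. Pathway genes lower at 24 h, 1, became 5 with no filter and 2 with the replicate block, and in vehicle, 0, became 2 with no filter. The block changed no call of a named gene. Same-numbered libraries were not shown to pair: their deviations correlated at 0.42 between the 12 h groups, 0.06 between the 24 h groups and -0.04 between the vehicle groups.

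Leaving out single libraries gave 174 to 724 genes higher and 250 to 969 lower at 12 h, 95 to 1230 and 74 to 726 at 24 h, and 81 to 589 and 6 to 423 in vehicle. Usage calls ran over 17 to 51, 44 to 603 and 19 to 89 genes. Pathway genes higher numbered 1 to 7, 0 to 3 and 0 to 4, lower 1 to 4, 0 to 5 and 0 to 2, and with changed usage 0 to 1, 0 to 3 and 0 to 1. At 12 h log2 fold changes were 0.10 to 0.25 for MAP3K7, -0.50 to -0.16 for TAB1, 0.061 to 0.16 for TAB2 and 0.91 to 1.09 for TAB3. At 24 h they were -0.14 to 0.20, -0.21 to -0.12, -0.23 to -0.10 and 0.51 to 0.54. In shares, ENST00000369329 was 27.2 to 29.5 points and ENST00000369332 -40.0 to -35.8 at 12 h, and -5.45 to 6.41 and -11.0 to 2.13 at 24 h. In such fits a lone library is assumed to vary like the other groups. The other share differences of the members kept their direction or stayed within the spread between replicates, except 4. The TAB1 share of ENST00000216160, 4.85 points at 12 h, became 3.03 from posterior mean counts and 20.6 in the fraction, and at 24 h -0.13 became 1.38 in the fraction. The TAB3 share of ENST00000288422 at 12 h, 4.06 points, became -13.3 among transcripts with at least 10% alone. Depth limits shares most in BaP 24 h replicate 1, where MAP3K7 had 97 counts.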
